A study of Homo sapiens with 3 samples.

Results

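The 10 genes described here are transcripts that growth factor signalling through the kinase ERK induces early, together with genes whose products feed back on that pathway. They were taken by symbol as a fixed list: the early genes EGR1, IER2, IER3 and PHLDA1, the dual-specificity phosphatases DUSP1, DUSP4, DUSP5 and DUSP6, and the Sprouty genes SPRY2 and SPRY4. All 10 were present among 23277 gene symbols. Total RNA was sequenced from CaSki, a human papillomavirus-positive cell line established from an epidermoid carcinoma of the cervix. There were 3 groups of 1 library each. The first carried FLAG-tagged NANOG, a homeobox transcription factor of pluripotent cells, in the pMSCV retroviral vector and received an siRNA against HDAC1, a histone deacetylase of corepressor complexes. The second carried the same NANOG vector and received an siRNA against GFP as control. The third carried the empty pMSCV vector and received the GFP siRNA. They are called NANOG siHDAC1, NANOG siGFP and empty vector cells below. The series addresses genes controlled by NANOG together with HDAC1. The labels give no clone, harvest time or growth factor treatment. With 1 library a group there is no replicate error, so no difference below has a test, a p-value or an interval.

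In the ERK pathway, activated receptors load RAS with GTP, and RAS starts a chain of the kinases RAF, MEK and ERK. ERK phosphorylates ternary complex factors that sit with serum response factor on CArG boxes, and early genes such as EGR1 are transcribed within minutes without new protein synthesis. Among the products are brakes: DUSP phosphatases remove the activating phosphates from ERK and related kinases, and Sprouty proteins act between the receptors and RAF. In carcinoma cells the levels of these transcripts are widely used as readouts of ERK output.

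Promoter windows from 250 bases before to 50 bases after the annotated transcription start (RefSeq, GRCh38.p14) were found for 7 of the 10 genes, EGR1, IER2, DUSP1, DUSP6, SPRY2, SPRY4 and PHLDA1; IER3, DUSP4 and DUSP5 had no entry. Both strands were searched for the CArG box, for the cyclic AMP response element (CRE) TGACGTCA, for the ETS-type motif CCGGAA and for the TATA motif TATAAA. These motifs do not overlap one another in the windows. The promoters of EGR1 and DUSP1 are shown because these 2 early genes differed in their order over the libraries and carry different motifs. Both are written along the gene, with the CArG boxes of EGR1 and the CRE of DUSP1 in capitals. The EGR1 window is chr5:138465229-138465528 on the plus strand and the DUSP1 window chr5:172771146-172771445 on the minus strand.
EGR1: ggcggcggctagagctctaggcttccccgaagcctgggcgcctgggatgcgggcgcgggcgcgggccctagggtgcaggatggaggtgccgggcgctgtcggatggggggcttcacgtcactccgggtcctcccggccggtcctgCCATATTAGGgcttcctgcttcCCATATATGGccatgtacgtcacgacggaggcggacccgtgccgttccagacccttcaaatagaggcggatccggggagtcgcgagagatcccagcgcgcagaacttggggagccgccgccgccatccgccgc
DUSP1: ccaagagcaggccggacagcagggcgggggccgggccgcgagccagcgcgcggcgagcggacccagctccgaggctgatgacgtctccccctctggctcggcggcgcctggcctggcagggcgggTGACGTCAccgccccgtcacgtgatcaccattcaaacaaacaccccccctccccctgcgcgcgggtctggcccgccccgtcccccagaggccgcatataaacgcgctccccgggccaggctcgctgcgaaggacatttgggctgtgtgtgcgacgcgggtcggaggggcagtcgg
The 2 CArG boxes of EGR1 start 105 and 83 bases before the transcription start, and 1.29% of 35116 promoter windows hold such a box. The CRE of DUSP1 starts 125 bases before its start, ahead of a TATA motif at 30 bases, where 1.85% of windows hold the CRE and 11.5% the TATA motif. An ETS-type motif lay in the windows of IER2, PHLDA1 and the first of 3 SPRY2 starts, against 17.2% of all windows. The windows of DUSP6 and SPRY4 held none of these letters. A match describes the letters of the reference and was not tied to binding in these cells.

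**Figure D1:**
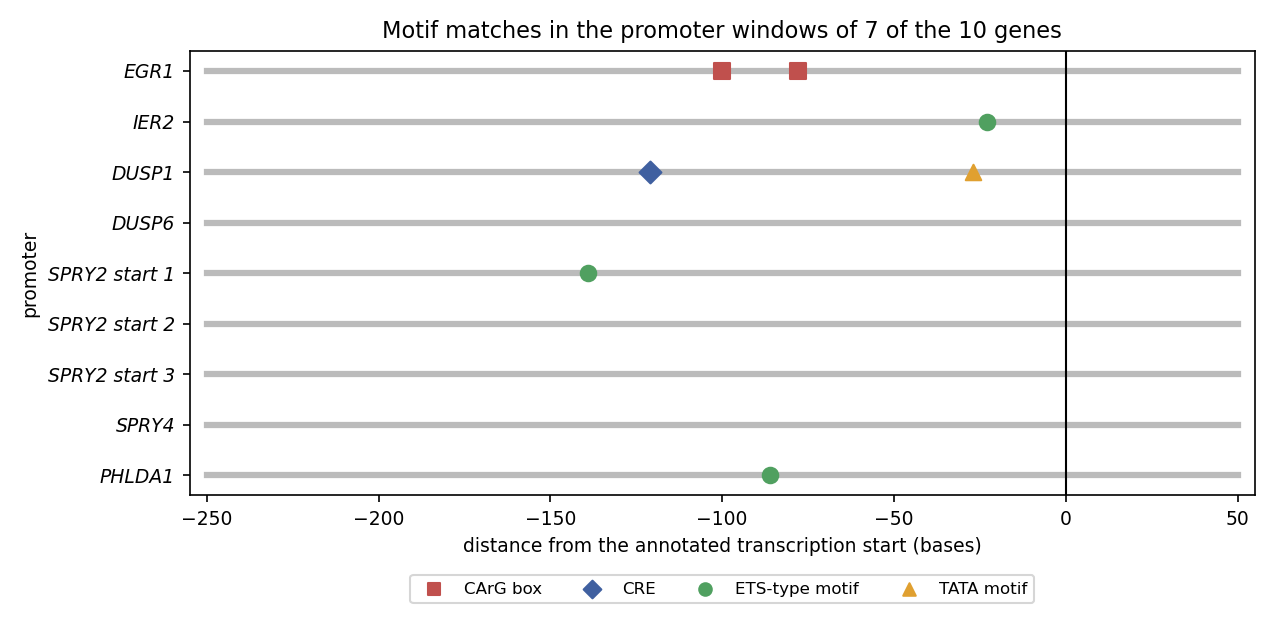
Promoter windows of 7 genes with motif matches on either strand, by distance in bases from the annotated transcription start (x axis) for each annotated start (y axis); grey bars are the windows and symbols mark the middle of a match. The 2 CArG boxes are in EGR1 and the CRE in DUSP1.

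Values are FPKM, fragments scaled by transcript length and by sequencing depth, so levels of different genes can be set side by side. Between libraries they also depend on how much of the reads a few abundant RNAs take, which is not known here. Small RNA symbols held 16%, 23.1% and 21.2% of the summed FPKM in NANOG siHDAC1 cells, NANOG siGFP cells and empty vector cells. These are not shares of reads, because FPKM divides by transcript length. All symbols together summed to 600749 FPKM for NANOG with HDAC1 siRNA, 681947 FPKM for NANOG with GFP siRNA and 660990 FPKM for empty vector. The values are not read counts. Of 2158 genes that lay below 0.3 FPKM and above 0 in every library, between 59.5% and 62.8% had values in 2 libraries that stood to each other as a pair of small whole numbers (6 at most, tolerance 1%), at relative depths within 1.01-fold of each other. The other genes did not, so this is a rough estimate of the relative depths, and the depths themselves are unknown. In bulk RNA, fewer cells that express a gene and less RNA per cell cannot be told apart. NANOG followed the labels, at 325, 298 and 0.0357 FPKM in NANOG siHDAC1 cells, NANOG siGFP cells and empty vector cells. HDAC1 stood at 12.8, 108 and 19.02 FPKM in the same order. HDAC1 was thus highest in the NANOG siGFP library, which 2 of the 3 comparisons use. The only other NANOG library received HDAC1 siRNA. An HDAC1 level that goes with NANOG and a deviation of this 1 library therefore cannot be told apart. Of 10 squamous and cervical epithelial markers, between 9 and 10 were at 1 FPKM or more in each library, with a summed level of 4872, 5745 and 5516 FPKM in the same order. None of 7 fibroblast markers reached 1 FPKM in any library (sums of 0.0936, 1.04 and 0.14 FPKM), with COL3A1, DCN, LUM and THY1 at 0 in at least 1 library. COL1A2 made up most of the sum in NANOG siGFP cells, at 0.948 FPKM, and the other fibroblast markers there summed to 0.0882 FPKM. It was at 0.00649 FPKM in NANOG siHDAC1 cells and 0.0198 FPKM in empty vector cells. Of 7 blood cell markers, which include the red cell haemoglobin gene HBB beside leukocyte genes, only CD68, a lysosomal membrane gene that other cells also express, reached 1 FPKM, at 53.5, 61.2 and 50.7 FPKM. The other blood cell markers summed to 0.325, 0.37 and 0.218 FPKM, and HBB was at 0 in all 3 libraries.

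The members spanned a wide range of levels. IER2 was the most abundant in every library and SPRY4 the least. DUSP4 and DUSP5 came next to IER2, DUSP1, IER3, PHLDA1 and SPRY2 were intermediate, and EGR1 and DUSP6 stood between 0.626 and 2.08 FPKM. Of the 11397 genes that averaged 1 FPKM or more across libraries, 87.6%, 86.2% and 85.2% were below IER2 in NANOG siHDAC1 cells, NANOG siGFP cells and empty vector cells. For EGR1 these shares were 9.91%, 4.34% and 1.58%. SPRY4, with a mean of 0.209 FPKM, was the 1 member that did not reach this filter; counts below are over all 10 members, and the background is over the 11397 genes. In the plot of levels by library the spread between genes was far larger than that between libraries.

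**Figure D2:**
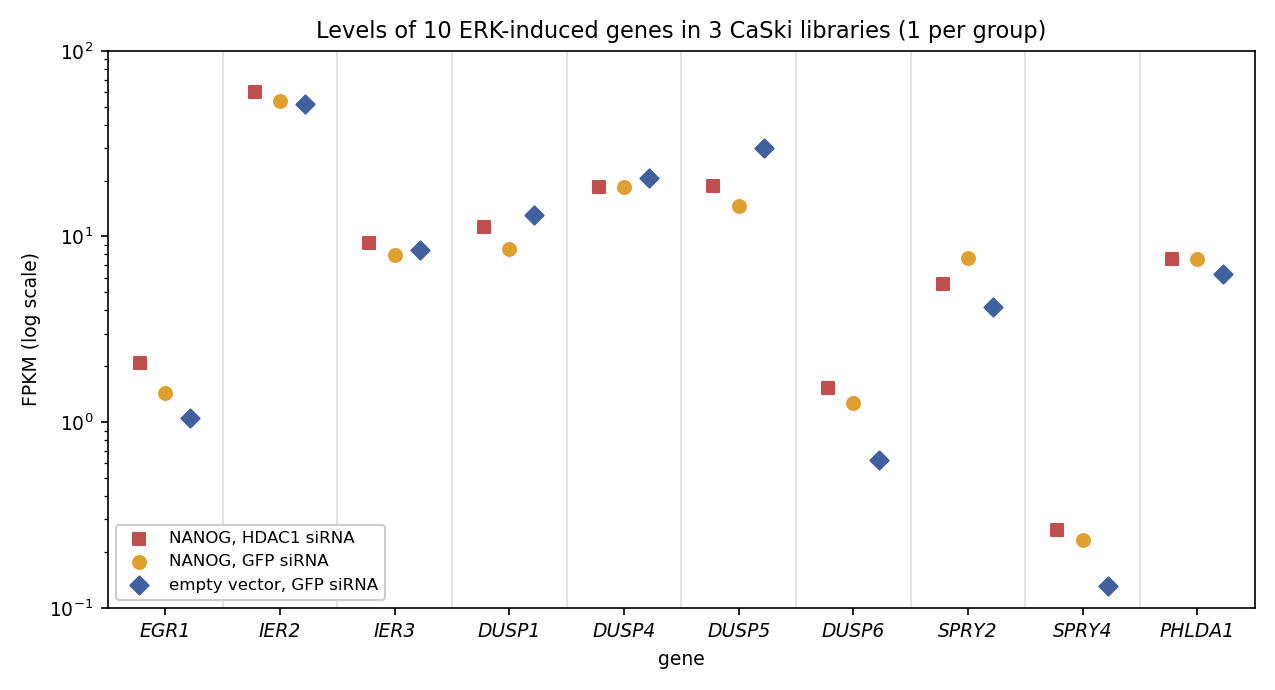
Level of each of the 10 genes (x axis) in FPKM on a log scale (y axis) in the 3 libraries; each point is 1 library and there are no error bars because each group had 1 library. EGR1, DUSP6 and SPRY4 are lowest in empty vector cells, while DUSP5 is highest there, at 29.98 FPKM.

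EGR1, the zinc finger transcription factor with the 2 CArG boxes shown above, stood at 2.08 FPKM with NANOG and HDAC1 siRNA, 1.43 FPKM in NANOG siGFP cells and 1.05 FPKM in empty vector cells. It was highest in the HDAC1 siRNA library and lowest with empty vector, with FPKM ratios of 1.46 for HDAC1 siRNA over GFP siRNA and 1.36 for NANOG over empty vector. IER2, a nuclear early gene product, kept the same order over a narrower range, at 60.3, 53.3 and 51.5 FPKM. The IER2 level was 1.17-fold that of empty vector cells in the HDAC1 siRNA library.

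IER3, an early gene product that binds ERK, was at 9.19 FPKM in NANOG siHDAC1 cells, 7.90 FPKM in NANOG siGFP cells and 8.40 FPKM in empty vector cells. Its level is uncertain. Of its 20 nearest protein-coding neighbours on chromosome 6 by gene order in GENCODE release 29 (GRCh38), 19 were in the files and 17 of these were listed at exactly 0 in all 3 libraries, among them TUBB, a tubulin gene, and FLOT1. Across all protein-coding symbols 16.9% were at 0 in all 3 libraries, and around the other members between 0 and 7 of at most 20 neighbours were. The part of this in the IER3 values was not tested.

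PHLDA1, an early gene product with a pleckstrin homology-like domain that restrains receptor signalling, was at 7.54 FPKM in NANOG siHDAC1 cells, 7.58 FPKM in NANOG siGFP cells and 6.29 FPKM in empty vector cells. Its 2 NANOG libraries were nearly level, and both were above empty vector cells.

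Among the phosphatases, DUSP5 and DUSP6 stood on opposite sides of their empty vector levels. DUSP5, the nuclear phosphatase that acts on ERK, stood at 18.7 FPKM in NANOG siHDAC1 cells, 14.6 FPKM in NANOG siGFP cells and 29.98 FPKM in empty vector cells. DUSP6, the cytoplasmic phosphatase that acts on ERK, stood at 1.54, 1.27 and 0.626 FPKM in the same order. DUSP5 was thus highest with empty vector and DUSP6 lowest there. No scaling between libraries can change the ratio of DUSP5 over DUSP6 within a library. It was 12.2 in NANOG siHDAC1 cells, 11.5 in NANOG siGFP cells and 47.9 in empty vector cells. The last ratio rests on the low DUSP6 level of 0.626 FPKM. DUSP4 over DUSP6 was also highest in empty vector cells, at 12.1, 14.4 and 33.1 in the same order. The DUSP5 pseudogene DUSP5P was at 0.118, 0.0589 and 0.240 FPKM, and how reads were shared between the pair is not given in the sources used here.

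DUSP1, a nuclear phosphatase that also acts on p38 and JNK, was at 11.2 FPKM in NANOG siHDAC1 cells, 8.59 FPKM in NANOG siGFP cells and 13.02 FPKM in empty vector cells. It had the same order as DUSP5, with the NANOG siGFP library lowest. The level with HDAC1 siRNA covered 58.4% of the FPKM gap between NANOG siGFP cells and empty vector cells for DUSP1, and 26.8% for DUSP5, shares that rest on the NANOG siGFP library. DUSP4, also a nuclear phosphatase, varied least of the 4 phosphatases by FPKM ratio, at 18.6, 18.4 and 20.7 FPKM. Accordingly DUSP5 over DUSP4 was 1.01 in NANOG siHDAC1 cells, 0.795 in NANOG siGFP cells and 1.45 in empty vector cells.

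SPRY2, a Sprouty inhibitor of receptor signalling to RAS, was at 5.53 FPKM in NANOG siHDAC1 cells, 7.62 FPKM in NANOG siGFP cells and 4.19 FPKM in empty vector cells. It was highest in NANOG siGFP cells, and its level with HDAC1 siRNA covered 61.03% of the gap to empty vector cells. This share also rests on the NANOG siGFP library. Such shares were worked out only for DUSP1, DUSP5 and SPRY2. In EGR1, IER2, DUSP6 and SPRY4 the level with HDAC1 siRNA lay further from empty vector cells than the NANOG siGFP level. DUSP4 and PHLDA1 were nearly level between the NANOG libraries, and IER3 with HDAC1 siRNA went past its empty vector level. SPRY4, the paralog of SPRY2, had 0.264 FPKM in NANOG siHDAC1 cells, 0.233 FPKM in NANOG siGFP cells and 0.131 FPKM in empty vector cells. These levels are too low for the filter. SPRY1, a related Sprouty gene outside the list and named after its values were seen, was at 0.560, 0.699 and 1.65 FPKM. It did not pass the filter either. SPRY2 over SPRY1 within a library was 9.88 in NANOG siHDAC1 cells, 10.9 in NANOG siGFP cells and 2.54 in empty vector cells. SPRY2 over SPRY4 was 21.0, 32.7 and 32.1 in the same order, nearly level between NANOG siGFP cells and empty vector cells. By GENCODE release 29, transcripts of the opposite strand overlap IER2, IER3, DUSP1, DUSP6, SPRY4 and PHLDA1; the kit was stranded, but whether strand was used in counting is not given in the sources used here, so the values of these genes may include reads from the other strand.

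NANOG cells were set against empty vector cells, both with GFP siRNA, as differences of log2(FPKM + 1), a scale that understates changes of genes near 1 FPKM. No gene of the list differed by 2-fold, where 1.88% of all genes did. SPRY2 was higher by 0.73 and DUSP5 lower at -0.99, and these 2 of 10 were past 1.5-fold, where 8.72% of all genes were (3.47% higher and 5.25% lower). DUSP5 lay just inside the 2-fold limit and only 143 of the 11397 genes had a lower value. With rescaling to TPM, which gives each library the same total with small RNAs included, its difference was -1.05. Without a pseudocount its log2 ratio was -1.04. DUSP6 passed 2-fold without one too: its difference was 0.48 on the log2(FPKM + 1) scale, but its FPKM ratio was 2.03. DUSP1 differed by -0.55, EGR1 by 0.25, PHLDA1 by 0.24, SPRY4 by 0.12 and IER2 by 0.05. DUSP4 and IER3 differed by -0.16 and -0.08. Of the 10 genes, 6 were higher, where 49.2% of all genes were, and 4 lower, where 50.8% were. Their median difference was 0.09, beside -0.01 over all genes, so the list had no common direction. In a list of 10, 1 gene is 10% of the members, and these counts do not set the list apart from all genes.

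HDAC1 siRNA was set against GFP siRNA in NANOG cells. Members were past neither 2-fold (0 of 10, where 0.298% of all genes were) nor 1.5-fold (0 of 10, where 2.11% were). The differences were small and mostly positive: 8 of 10 genes were higher, where 53.4% of all genes were, and 2 lower, where 46.6% were. They had a median of 0.17, beside 0.01 over all genes. Rescaling to TPM gave 9 of 10 higher, where 81.3% of all genes then were, so the count stood out less. The median of the members stayed above that of all genes with TPM, at 0.33 beside 0.18. Scaling the libraries to the same upper quartile kept 8 of 10 higher, where 50.6% of all genes were (medians 0.16 and 0.002). Setting the median difference of all genes to 0 also kept 8 of 10 higher, with a median of 0.15. Without rescaling, DUSP1, EGR1 and DUSP5 were nearly alike at 0.34 each, and 465, 473 and 493 of the 11397 genes had larger positive differences. IER3 differed by 0.20, IER2 by 0.17, DUSP6 by 0.16, SPRY4 by 0.04 and DUSP4 by 0.01. SPRY2 was lower at -0.40, with 447 genes below it. PHLDA1 was at -0.01, and at 0.16 when the libraries were rescaled to TPM, which moved the median of all genes to 0.18 here and to 0.13 for NANOG with HDAC1 siRNA against empty vector. This comparison and the first share the NANOG siGFP library, so a deviation of that library alone gives opposite signs in them.

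NANOG siHDAC1 cells were therefore also set against empty vector cells, a pair that does not use that library but differs in both NANOG and the siRNA. DUSP6 was higher by 0.64 and EGR1 by 0.59, and DUSP5 was lower at -0.65. These 3 of 10 genes were past 1.5-fold, where 5.22% of all genes were (1.78% higher and 3.44% lower). With TPM DUSP5 was inside 1.5-fold at -0.53, which left 2 genes, where 6.26% of all genes were past it. With a filter at a mean of 5 FPKM, which removes DUSP6 and EGR1, DUSP5 alone was left. DUSP6 was at 2.45-fold, SPRY4 at 2.02-fold and EGR1 at 1.99-fold its FPKM in empty vector cells, each from a level of about 1 FPKM or less, while 0 of 10 genes were past 2-fold on the log2(FPKM + 1) scale, where 1.18% of all genes were. SPRY2 differed by 0.33, PHLDA1 by 0.23, IER2 by 0.22, SPRY4 by 0.16 and IER3 by 0.12. DUSP1 and DUSP4 were lower at -0.20 and -0.15. Of the 10 genes, 7 were higher, where 49.8% of all genes were, and 3 lower, where 50.2% were. The median was 0.19, beside -0.001 over all genes; with TPM 69.9% of all genes were higher. The plot of differences shows DUSP5 on the lower side and DUSP6 on the higher side against empty vector cells with either siRNA. Both of these comparisons use the 1 empty vector library, so a deviation of that library alone gives the same sign in both.

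**Figure D3:**
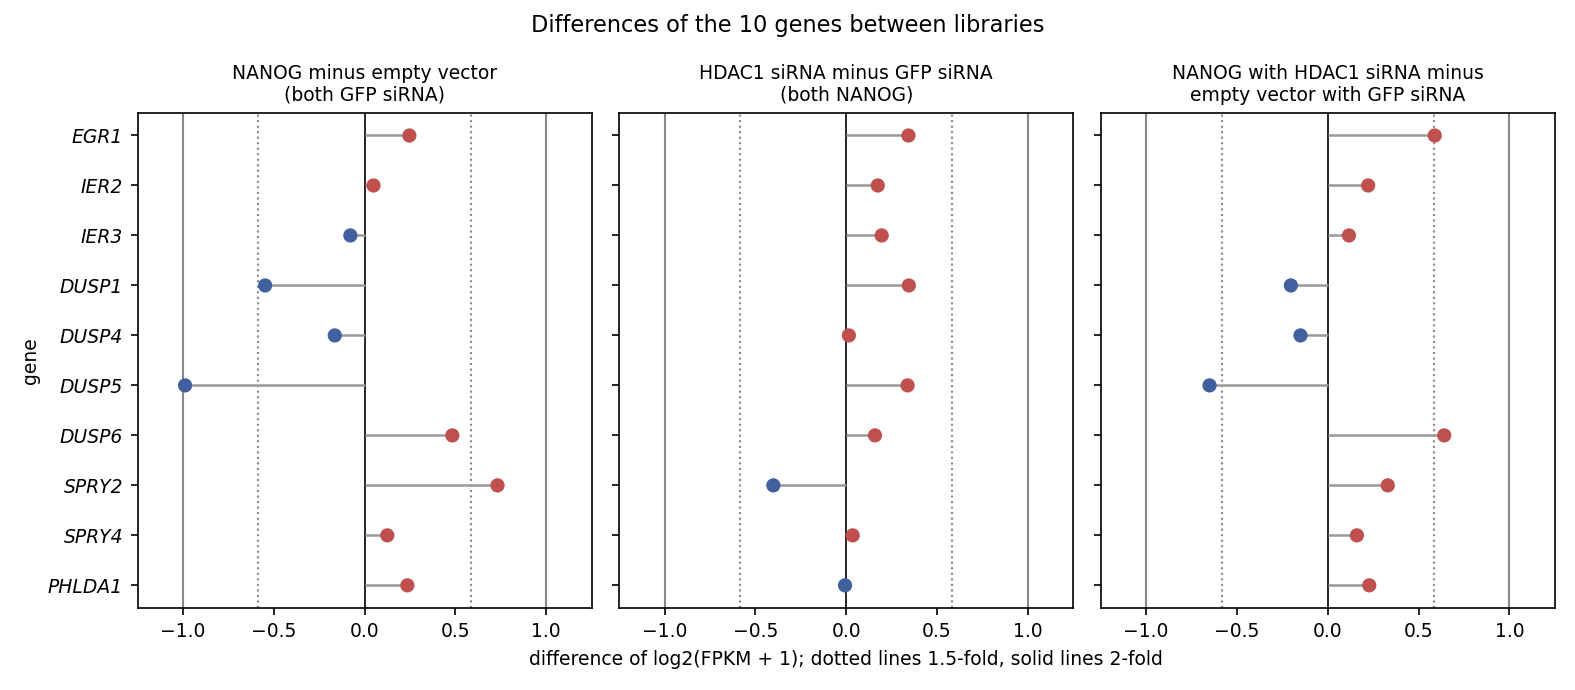
Difference of log2(FPKM + 1) (x axis) of each of the 10 genes (y axis) in the 3 comparisons; each point is a difference of 2 single libraries, and dotted and solid lines mark 1.5-fold and 2-fold. DUSP5 comes closest to 2-fold, at -0.99 for NANOG against empty vector, and with HDAC1 siRNA against GFP siRNA every point is inside 1.5-fold.

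The genes most like EGR1 and DUSP5, the member with the widest range over the libraries (0.99 on the log2(FPKM + 1) scale), were sought among 8365 genes that averaged 5 FPKM or more, by Euclidean distance over 2 differences in 3 libraries. Nearest to EGR1 were the spindle gene PSRC1 (distance 0.0196), the AP-1 gene FOSL1 (0.0631), the pro-apoptotic BAK1 (0.0649), the RNA helicase gene DDX49 (0.0759) and MRM1 (0.0816). FOSL1, itself an early gene, stood at 182 FPKM in NANOG siHDAC1 cells, 137 FPKM in NANOG siGFP cells and 117 FPKM in empty vector cells. Nearest to DUSP5 were the potassium channel gene KCNJ15 (0.00384), the zinc finger gene PLAGL1 (0.0212), IVL (0.0480), which encodes the squamous envelope protein involucrin, VSTM1 (0.0512) and the oxidase gene AOX1 (0.0580). IVL stood at 6.33, 4.61 and 10.2 FPKM in the same order of libraries. The distances use the log2(FPKM + 1) scale, which understates the differences of EGR1 more than those of the genes searched. For EGR1 the 2 differences were 0.25 and 0.34 on that scale, and 0.45 and 0.54 without a pseudocount. Nearest genes were not sought on another scale. The likeness rests on 3 libraries and is a description.

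The list called other feedback genes, 20 of 23 of which passed the filter, was mixed in direction. It was drawn broadly and was not limited to genes that ERK induces. It includes NF1, RASA1, LZTR1 and PEBP1, and the PHLDA1 paralogs PHLDA2 and PHLDA3. Over all genes 49.2% were higher with NANOG against empty vector and 53.4% with HDAC1 siRNA against GFP siRNA. For NANOG with HDAC1 siRNA against empty vector 49.8% were. Past 1.5-fold in either direction were 8.72%, 2.11% and 5.22% in the same order. These shares stand beside the counts of this list and of the lists below. With NANOG against empty vector 9 of the feedback genes were higher and 11 lower, with a median of -0.03. ERRFI1, which encodes an EGFR inhibitor, had differences like those of DUSP5 at a higher level: 33.9 FPKM in NANOG siHDAC1 cells, 24.9 FPKM in NANOG siGFP cells and 50.2 FPKM in empty vector cells, a difference of -0.98 for NANOG. PHLDA2, a paralog of PHLDA1, was higher by 0.76 with NANOG, at 36.9, 31.8 and 18.4 FPKM. RASAL2, a RAS GTPase-activating gene, differed by -0.41 and DUSP14, another dual-specificity phosphatase gene, by -0.40. RASA2, another RAS GTPase-activating gene named after its values were seen, was lower at -0.87. With HDAC1 siRNA against GFP siRNA 12 were higher and 8 lower (median 0.15), and 16 and 4 with TPM, where 81.3% of all genes were higher. DUSP2 differed by 0.45, ERRFI1 by 0.43, DUSP7 by 0.40 and DUSP10, whose product acts on p38 and JNK, by -0.45; DUSP8, named after its values were seen, was the 1 gene past 1.5-fold, at 0.73. With HDAC1 siRNA and NANOG against empty vector 9 were higher and 11 lower (median -0.02), and 13 and 7 with TPM (median 0.09), where 69.9% of all genes were higher. PHLDA2 was past 1.5-fold at 0.97, DUSP2 was higher by 0.55, and ERRFI1 and DUSP10 were lower at -0.55 and -0.50.

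Of 35 other immediate early genes, 27 passed the filter. With NANOG against empty vector 10 were higher and 17 lower (median -0.18), with MAFF at -0.73, KLF6 at -0.60, CYR61 at -0.58 and KLF10 at 0.60. With HDAC1 siRNA against GFP siRNA 22 were higher and 5 lower (median 0.21), and 24 and 3 with TPM, where 81.3% of all genes were higher. MAFF, a small MAF factor gene, was past 1.5-fold there at 0.80 and stood at 27.4, 15.3 and 26.1 FPKM in NANOG siHDAC1 cells, NANOG siGFP cells and empty vector cells. IER5L was lower at -0.55. Against empty vector, NANOG siHDAC1 cells had 16 higher and 11 lower (median 0.07), with FOSL1 at 0.63, KLF10 at 0.61, CYR61 at -0.65 and JUND at -0.52. With TPM the last split was 20 higher and 7 lower, where 69.9% of all genes were higher.

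Of 18 other transcripts used as readouts of ERK output, 17 passed the filter. They had 11 higher and 6 lower with NANOG against empty vector (median 0.05), 12 higher and 5 lower with HDAC1 siRNA against GFP siRNA (median 0.17), and 13 higher and 4 lower for NANOG with HDAC1 siRNA against empty vector (median 0.25). With TPM the first split was 9 higher and 8 lower, where 43.9% of all genes were higher, and the second 14 and 3, where 81.3% were. CCND1, which encodes cyclin D1, was high in NANOG siGFP cells alone, at 27.0, 70.4 and 30.5 FPKM in NANOG siHDAC1 cells, NANOG siGFP cells and empty vector cells. The integrin gene ITGA2 differed by -0.85 with NANOG and by 0.49 with HDAC1 siRNA. In NANOG siHDAC1 cells against empty vector, the chromatin gene HMGA2 was higher by 1.29 and the ETS factor gene ETV4, named after its values were seen, by 0.74. HMGA2 stood at 11.3, 4.63 and 4.01 FPKM in NANOG siHDAC1 cells, NANOG siGFP cells and empty vector cells. It was higher by 1.13 with HDAC1 siRNA against GFP siRNA and by 0.17 with NANOG against empty vector.

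The kinase cascade itself was mostly lower with NANOG. Of 31 genes 29 passed the filter, of which 25 were lower and 4 higher with NANOG against empty vector (median -0.17), where 50.8% of all genes were lower. MAP2K1, which encodes MEK1, was lower at -0.85 and ELK3, a ternary complex factor gene, at -0.80. MKNK2, which encodes a kinase that ERK activates, was at -0.73 and the RAS-related RRAS at -0.62. SOS1, an activator of RAS named after its values were seen, was at -0.61. These 5 of 29 genes were past 1.5-fold, all lower, where 5.25% of all genes were that much lower. MAP2K1 stood at 53.6 FPKM in NANOG siHDAC1 cells, 48.3 FPKM in NANOG siGFP cells and 87.8 FPKM in empty vector cells. MAPK3, which encodes an ERK kinase, differed by -0.09. With HDAC1 siRNA against GFP siRNA 24 were higher, where 53.4% of all genes were, and 5 lower (median 0.07). None was past 1.5-fold, where 2.11% of all genes were, and MAPK3 was at -0.27. With TPM 28 were higher and 1 lower (median 0.24), where 81.3% of all genes were higher and their median was 0.18. Against empty vector, NANOG siHDAC1 cells had 23 lower, where 50.2% of all genes were, and 6 higher (median -0.14). MAP2K1 at -0.70 was the 1 gene past 1.5-fold, where 5.22% of all genes were. With TPM 16 were lower and 13 higher, where 69.9% of all genes were higher.

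Of 24 receptors and ligands 15 passed the filter, with 10 lower and 5 higher with NANOG against empty vector (median -0.19). EGFR stood at 33.3 FPKM in NANOG siHDAC1 cells, 43.7 FPKM in NANOG siGFP cells and 56.4 FPKM in empty vector cells, the reverse of the EGR1 order. The receptor genes ERBB3 and MET differed by -0.68 and -0.63 with NANOG, while EPGN, which encodes the EGFR ligand epigen, was higher by 1.22. FGFBP1, which encodes a protein that binds FGF ligands and was named after its values were seen, had the largest difference of this list, at -1.42 with NANOG; it stood at 1.13, 2.18 and 7.49 FPKM in NANOG siHDAC1 cells, NANOG siGFP cells and empty vector cells. With HDAC1 siRNA against GFP siRNA 6 were higher and 9 lower (median -0.08), and 10 and 5 with TPM (median 0.09), where 81.3% of all genes were higher, with FGFBP1 at -0.58, FGFR2 at -0.47 and EGFR at -0.38. Against empty vector, NANOG siHDAC1 cells again had 6 higher and 9 lower (median -0.14), with FGFBP1 at -1.99, EGFR at -0.74, MET at -0.70 and EPGN at 1.09.

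**Figure D4:**
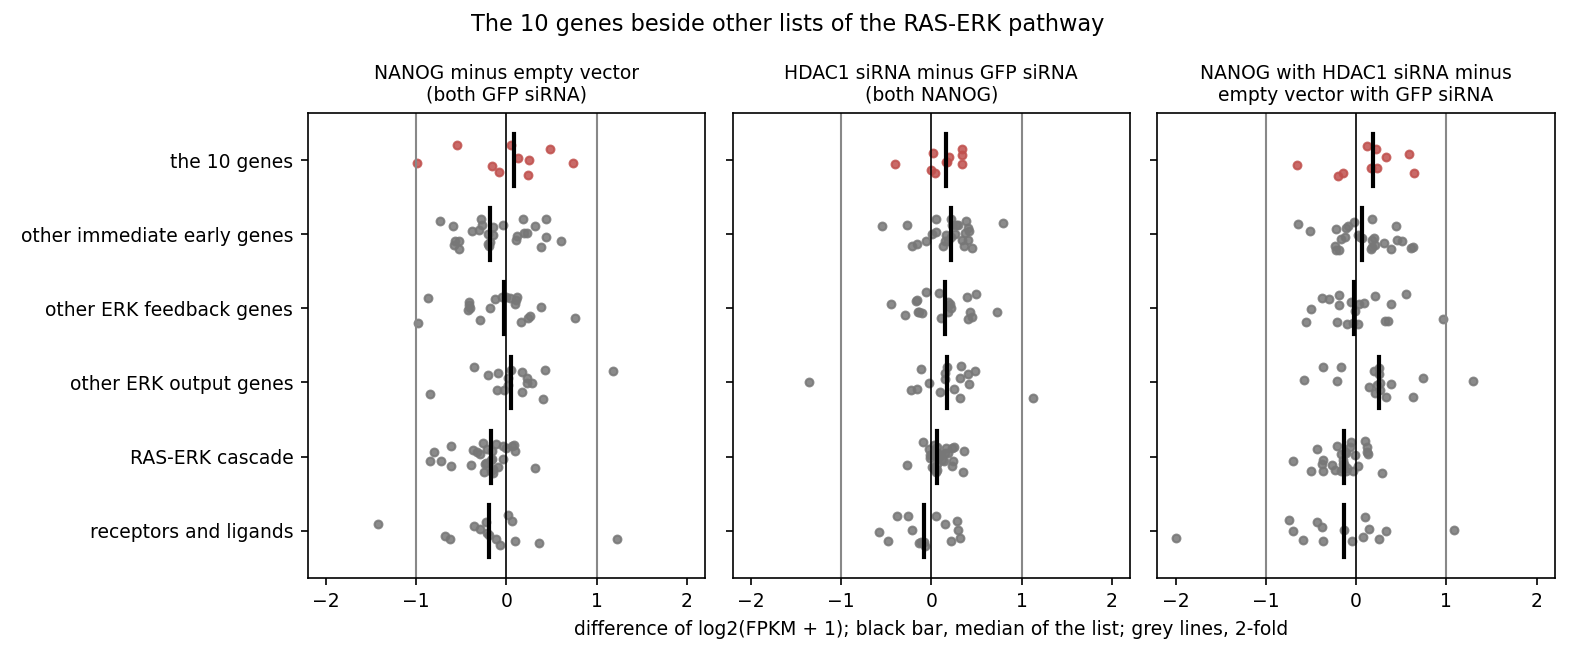
Difference of log2(FPKM + 1) (x axis) for the 10 genes and for 5 other lists of the pathway (y axis) in the 3 comparisons; each point is a gene, the black bar the median of its list, and genes of the other lists are shown where they passed the filter. The medians of the lists lie between -0.19 and 0.25, and the cascade lies mostly below 0 for NANOG against empty vector.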

How the data were processed

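RNA of 3 CaSki libraries (2 ug of total RNA each, TruSeq stranded total RNA kit, per the labels' protocols) was analysed. FPKM values, deposited by the authors, gave 1 value per symbol; TopHat2, Cufflinks and hg19 are named in the submitters' processing notes. For versions, annotation and strand handling the sources used here give nothing. FPKM divides by library size, so very abundant RNAs in a library lower its other values. Small RNA symbols (1642 of 23277) were left out of the genes compared. They were kept in the totals used for TPM, so TPM values also depend on the small RNA share of each library. Differences were taken as log2(FPKM + 1) over 11397 genes that averaged 1 FPKM or more, and genes past 2-fold and 1.5-fold were counted. The 10 members and the other lists were chosen with earlier results of these data known. Named genes are the members, up to 4 per list and comparison with the largest difference among those averaging 5 FPKM or more, the checks, and the nearest genes; exceptions are said, and a few genes are not reported here. Alternatives changed the pseudocount, filter, scaling and small RNAs; the ratio with no pseudocount was added after seeing the data. The calling step was run on simulated data with set 3-fold changes in genes of 5 FPKM or more and little noise. That run does not cover low levels or the spread between cultures. Python 3.11.15, numpy 2.4.6 and pandas 2.3.3 were used. HDAC1 siRNA without NANOG was not analysed here.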

Additional observations from a re-analysis of the deposited data

How the results depend on the processing

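Depth per value is unknown and each group had 1 library, so noise between cultures cannot be told apart from the differences; EGR1, DUSP6 and SPRY4 rest on low levels. Counts over the members were compared by whether they stayed within 1.5 times the reported count, and medians by whether they stayed within 0.1. Of 138 values under the alternatives, 122 did. Some of these could not move. Dropping the filter or keeping small RNA symbols cannot change a count or median of members, because the main setting already counted all members. A 3-fold threshold could add none where no member was past 2-fold. The 122 therefore overstates how stable the values are. NANOG against empty vector had 1 member past 2-fold with a pseudocount of 0.1 FPKM (3.09% of all genes), 0.5 FPKM (2.37%) or with TPM (2.34%), and 2 with no pseudocount (3.24%); past 1.5-fold were 4 with 0.1 FPKM (12.3%) and 5 with none (12.8%). NANOG with HDAC1 siRNA against empty vector had 1 past 2-fold with 0.1 FPKM (1.88%) and 2 with none (2.01%). A filter at a mean of 5 FPKM left 7 members: with NANOG against empty vector 3 were higher and the median was -0.079, with HDAC1 siRNA against GFP siRNA 5 were higher, and for NANOG with HDAC1 siRNA against empty vector 4 were higher and 1 past 1.5-fold. That filter removes EGR1, DUSP6 and SPRY4 by construction. With TPM, HDAC1 siRNA against GFP siRNA had 1 member lower and a median of 0.33, where 81.3% of all genes were higher, and NANOG with HDAC1 siRNA against empty vector a median of 0.31; TPM moved the medians of all genes to 0.18 and 0.13, and DUSP5 in the last comparison was then inside 1.5-fold, at -0.53. No value past 1.5-fold changed sign under any alternative run, and PHLDA1 with HDAC1 siRNA was the 1 member difference whose sign changed. No paired analysis was possible because each group had 1 library. No replicate could be left out for the same reason.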
